A study of Homo sapiens with 4 samples.

Results

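LASCPC-01 is a human neuroendocrine prostate cancer (NEPC) cell line that was made by expressing NMYC together with activated AKT1, and 37 DNA repair genes were examined in it after exposure to fluoxetine. Fluoxetine is an antidepressant that blocks serotonin reuptake, and cells given PBS, the solvent of the drug, were the control. The genes were chosen by symbol from the known repair pathways, though with earlier results of these data already known. All 37 were among the 16376 genes with deposited values, and all 37 were among the 12663 genes with a mean level high enough to be tested. The groups were 2 PBS libraries and 2 fluoxetine libraries of messenger RNA, all labelled as wild type and as day 3. The study describes the treatment for sequencing as 5 µM fluoxetine for 48 h, so the day in the labels and the hours in the methods differ. Nothing in the labels says that the libraries of a group came from separate cultures, so the p-values measure only the spread between these libraries, which may be technical. The line is a single model of NEPC, and both groups carry the same NMYC and AKT1 transgenes.

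The cells were checked against markers of their type. MYCN stood at 369.7 and 386.5 FPKM in PBS and 323 and 364 in fluoxetine. FPKM counts fragments per length of gene and per depth of the library. Levels of different genes can be compared only as far as that length matches the transcripts made in these cells, which was not tested. INSM1 and NCAM1 were also present, SYP was under 0.7 in every library, and CHGA and NEUROD1 were under 0.1. Of 8 neuroendocrine markers, 6 could be tested; their median log2 fold change was -0.16, and NCAM1 and ENO2 were lower at an unadjusted limma p under 0.05, with adjusted p of 0.541 and 0.373. PTPRC, which marks leukocytes, was under 0.04 in every library. The summed levels of the 6 fibroblast markers were 2.85 and 3.14 in PBS and 1.98 and 2.84 in fluoxetine, nearly all of it COL1A1, and PDGFRB was at 0 in both PBS libraries. The part of these markers in the repair gene values was not tested.

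Cells repair DNA through several routes that each answer one kind of damage. Breaks of both strands are rejoined directly by end joining or copied from a sister chromatid by homologous recombination, and damage on one strand is cut out by base excision, nucleotide excision or mismatch repair. The Fanconi anaemia proteins open cross-links between the strands, nucleases and RecQ helicases take apart the joined DNA molecules left by recombination, and the kinases ATM and ATR signal that damage is present. In neuroendocrine tumours that divide quickly and are treated with platinum, these genes are of interest because many of them are expressed with the cell cycle.

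Repair gene promoters often hold a word read by the E2F cell cycle factors or have a close neighbour transcribed the other way, and sequences that show each are given here. Promoters of 300 bases, from 250 before to 50 after the annotated start, were found in RefSeq (GRCh38.p14) for 33 of the 37 genes. The E2F words were searched on both strands, as TTTCCCGC, TTTGGCGC, TTTCGCGC and TTTGCCGC. They were present in 8 of the 33 (24.2%): XRCC2, FANCA, FANCD2, MSH6, PMS2, XRCC6, XPC and GEN1. Among the promoters of 10250 tested genes the share was 6.60%, and among all 27305 genes it was 3.99%. Below, the promoters of XRCC2 (chr7:152676092-152676391, minus strand), FANCD2 (chr3:10026187-10026486, plus strand) and XRCC6 (chr22:41621045-41621344, plus strand) are written 5′ to 3′ along the gene, with the E2F word in capitals, read here from the opposite strand.
XRCC2: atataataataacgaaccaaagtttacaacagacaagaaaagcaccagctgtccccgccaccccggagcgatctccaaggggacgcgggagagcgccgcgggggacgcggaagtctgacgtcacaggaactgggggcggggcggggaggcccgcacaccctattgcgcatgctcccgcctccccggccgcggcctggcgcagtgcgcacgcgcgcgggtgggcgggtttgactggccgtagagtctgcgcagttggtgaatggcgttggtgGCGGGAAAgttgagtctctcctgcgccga
FANCD2: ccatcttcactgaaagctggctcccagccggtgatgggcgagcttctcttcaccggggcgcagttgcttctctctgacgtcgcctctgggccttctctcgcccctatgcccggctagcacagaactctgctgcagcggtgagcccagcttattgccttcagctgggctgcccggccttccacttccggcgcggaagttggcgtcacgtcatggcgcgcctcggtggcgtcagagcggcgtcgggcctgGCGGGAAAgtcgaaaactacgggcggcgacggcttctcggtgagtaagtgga
XRCC6: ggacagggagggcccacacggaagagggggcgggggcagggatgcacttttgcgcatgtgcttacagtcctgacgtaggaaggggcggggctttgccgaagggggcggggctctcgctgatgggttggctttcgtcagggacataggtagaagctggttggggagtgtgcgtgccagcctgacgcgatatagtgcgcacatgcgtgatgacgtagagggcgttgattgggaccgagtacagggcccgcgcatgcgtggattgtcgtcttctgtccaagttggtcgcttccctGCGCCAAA
The CCAAT box was found for 20 of the 33 genes (60.6%, against 43.6% of tested genes) and the GC box GGGCGG for 27 (81.8%, against 77.0%). The cell cycle element TTTGAA was found for 4 (12.1%, against 13.6%) and the NRF1 word for SLX4 alone (3.03%, against 2.52%). For every word, E2F included, a gene was counted if any of its annotated promoters held it. A gene with more annotated starts therefore had more chances to match. The overlap of these words with each other was not excluded from the counts. A word in a promoter is a match of letters and not a measured binding site. The 8 genes with an E2F word had log2 fold changes from -0.18 for XRCC2 to 0.09 for XRCC6, which are described with the other genes below.

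A neighbour that starts within 1000 bases and runs the other way was found for 16 of the 33 genes (48.5%), against 28.9% of tested genes and 20.1% of all genes. The shortest distances were 43 bases between LIG4 and ABHD13, 45 bases between EME1 and MRPL27 and 59 bases between GEN1 and SMC6. The promoters of EME1 (chr17:50372979-50373278, plus strand) and LIG4 (chr13:108218300-108218599, minus strand) are shown because the sequence that separates the starts of both genes is so short, and it is printed in capitals.
EME1: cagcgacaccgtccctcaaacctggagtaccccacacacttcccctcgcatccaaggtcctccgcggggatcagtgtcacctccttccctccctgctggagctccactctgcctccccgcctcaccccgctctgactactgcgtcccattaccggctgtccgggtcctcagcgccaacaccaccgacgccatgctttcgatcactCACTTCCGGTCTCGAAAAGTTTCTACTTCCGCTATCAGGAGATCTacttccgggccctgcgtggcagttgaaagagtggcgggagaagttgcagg
LIG4: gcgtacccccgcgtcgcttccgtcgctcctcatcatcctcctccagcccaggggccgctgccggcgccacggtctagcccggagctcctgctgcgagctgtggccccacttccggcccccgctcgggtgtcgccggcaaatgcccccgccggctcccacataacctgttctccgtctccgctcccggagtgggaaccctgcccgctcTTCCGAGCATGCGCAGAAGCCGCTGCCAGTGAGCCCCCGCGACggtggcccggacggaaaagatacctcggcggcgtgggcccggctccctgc
Of the neighbours, 12 were tested and 8 of them had a log2 fold change below 0, against 56.5% of all genes tested. The median of the 12 was -0.02, the same as over all genes tested, and their smallest adjusted p in limma was 0.535. MRPL27, a protein of the mitochondrial ribosome, stood at 70.6 and 63.5 FPKM in PBS and 76.0 and 77.5 in fluoxetine, a log2 fold change of 0.20 ± 0.08 (SE; limma, unadjusted p = 0.0234, adjusted p = 0.535). EME1, on the other side of the same 45 bases, was lower in both fluoxetine libraries than in both PBS libraries, with a log2 fold change of -0.19 that was -0.07 without the second fluoxetine library and -0.31 without the first. NPAT, which starts 429 bases from ATM, had a log2 fold change of -0.19 beside -0.15 for ATM. Whether reads were counted by strand is not given in the sources used here, so reads from overlapping ends of such neighbours could have been shared.

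None of the 37 DNA repair genes changed past the threshold after fluoxetine. In limma on log2(FPKM + 0.1), 0 of the 37 genes had an adjusted p under 0.05, against 30 of the 12663 genes tested (0.237%), and 0 had an unadjusted p under 0.05, against 1078 of them (8.51%). With limma voom on recovered reads 0 of the 37 had an adjusted p under 0.05 and 2 an unadjusted one, and the smallest adjusted p of the 37 over all 17 alternatives was 0.292. In the main fit, limma on log2(FPKM + 0.1), the smallest adjusted p among the 37 was 0.579, for ATR and WRN. Their unadjusted limma p of 0.0503 and 0.0564 lay just above 0.05, so the unadjusted count of 0 depends on the fit. That count was 3 after rescaling to TPM and 2 with eBayes without trend. It stayed at 0 after quantile normalization or median centring. Log2 fold changes, on the scale of FPKM + 0.1, ran from -0.26 for BRCA2 to 0.13 for XRCC3, with a median of 0.01 beside a median of -0.02 over all genes tested. They were below 0 for 18 genes and above 0 for 19, while 56.5% of all tested genes were below 0. After rescaling to TPM 26 of the 37 lay below 0 (69.1% of all genes) and their median was -0.04, since the median of all genes then was -0.07. It also turned the medians of the Fanconi anaemia and base excision genes given below to -0.02 and -0.01, and that of homologous recombination was above 0, at 0.04, after quantile normalization. Only the checkpoint kinases (-0.13 to -0.03), the junction nucleases with the RecQ helicases (-0.13 to -0.02) and the nucleotide excision genes (0.02 to 0.09) had a median of 1 sign in every alternative.

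The 95% intervals of the main fit limit each gene taken singly, for the spread between these libraries only. Intervals of the alternatives were not compared, and a change of scale such as TPM would move them. In the main fit the 95% interval of every one of the 37 genes lay within 1.5-fold of no change in either direction. That was so for 79.6% of all genes tested and for 97.4% of the 9648 genes with a mean of at least 2 FPKM. The lowest bound was 0.682-fold and the highest 1.26-fold. Each gene was covered by between 288 reads (EME1 in 1 fluoxetine library) and 26202 reads (PRKDC), and the depth by which the authors divided was between 32873603 and 34831389 fragments per library. Replicate libraries differed by more than counting noise, with a chi-square per degree of freedom of 8.85 between the PBS libraries and 10.6 between the fluoxetine libraries, so no library was a copy of another. Both fluoxetine libraries lay below both PBS libraries for 10 of the 37 genes (27.0%, against 24.8% of all genes tested) and above them for 7 (18.9%, against 16.7%), and the groups overlapped for 20. Of the 17 genes whose groups did not overlap, 12 moved by over 1.5 times when 1 library was left out, and the exceptions were BRCA2, RAD51C, XRCC2, RAD54L and WRN.

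**Figure D1:**
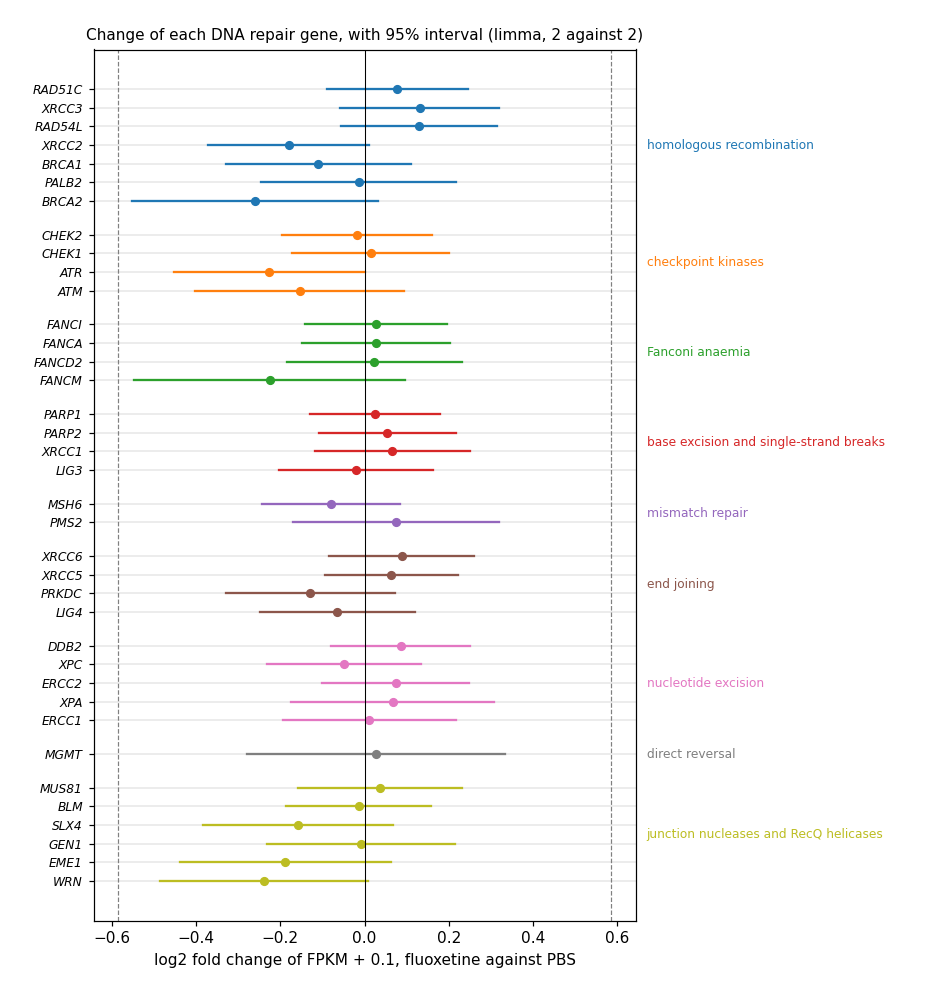
Log2 fold change of FPKM + 0.1, fluoxetine against PBS, for each of the 37 genes (points, limma, 2 libraries against 2) with the 95% interval (bars), grouped and coloured by pathway; dashed lines mark 1.5-fold either way. Every bar lies inside the dashed lines, from 0.682-fold at the lowest to 1.26-fold at the highest, and every bar crosses 0.

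In homologous recombination, 7 genes were measured and none passed the test. Their median log2 fold change was -0.01. The genes lay on both sides of 0, with BRCA1, BRCA2 and XRCC2 lower in both fluoxetine libraries and RAD51C, XRCC3 and RAD54L higher in both. BRCA2 (chr13:32315474-32400266), which acts in strand exchange, measured 2.86 and 2.83 FPKM in PBS and 2.22 and 2.50 in fluoxetine. The groups did not overlap, and the log2 fold change of -0.26 ± 0.13 (SE), with an interval from -0.55 to 0.03, was the lowest of the 37 (unadjusted p = 0.0757, adjusted p = 0.603). BRCA1 (chr17:43044295-43170245), which promotes the trimming of broken ends, measured 6.44 and 7.11 in PBS and 6.18 and 6.36 in fluoxetine. The second PBS library alone made most of that difference of -0.11 ± 0.10, and without it the log2 fold change was -0.04. PALB2, the protein that joins BRCA1 to BRCA2, overlapped between the groups at -0.01, so that the ratio of BRCA2 to PALB2 was 0.572 and 0.557 in PBS and 0.463 and 0.482 in fluoxetine. The ratios are given as a description, with no test.

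RAD51C (chr17:58692573-58735611), which acts in strand exchange and junction processing, had the highest level of the recombination genes, 18.0 and 17.4 FPKM in PBS and 18.8 and 18.5 in fluoxetine. Its groups were close but apart, with a log2 fold change of 0.08 ± 0.08 (adjusted p = 0.768). XRCC2 and XRCC3, which act beside it, lay at -0.18 and 0.13, and RAD54L, a motor protein of strand pairing, lay at 0.13.

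The checkpoint kinases had a median log2 fold change of -0.09 over 4 genes. ATR (chr3:142449235-142578826), the kinase of stalled replication, measured 7.52 and 6.84 FPKM in PBS and 5.80 and 6.45 in fluoxetine. Its log2 fold change of -0.23 ± 0.10 had the smallest p of all 37 genes (unadjusted p = 0.0503, adjusted p = 0.579), and the interval reached from -0.45 to 0.00. ATM (chr11:108222484-108369102), the kinase of broken DNA, measured 4.59 and 4.54 in PBS and 3.85 and 4.34 in fluoxetine, a log2 fold change of -0.15 ± 0.11 (adjusted p = 0.686) that was -0.07 without the first fluoxetine library. The kinases that ATR and ATM activate overlapped between the groups. CHEK2 measured 16.0 and 16.3 in PBS and 16.6 and 15.4 in fluoxetine, and CHEK1 had a log2 fold change of 0.01. CHEK2 has near-identical pseudogene copies, so its reads are uncertain.

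Among the 4 Fanconi anaemia genes, 3 overlapped between the groups and FANCM was lower in both fluoxetine libraries. FANCM (chr14:45135940-45200890), a motor protein that brings the complex to DNA, measured 2.11 and 2.50 FPKM in PBS and 1.92 and 1.99 in fluoxetine, with a log2 fold change of -0.23 ± 0.15 (adjusted p = 0.648). That value came to -0.11 without the second PBS library. FANCI, which is clamped onto DNA together with FANCD2, was the highest of the 4 at 25.2 and 23.5 in PBS and 24.2 and 25.5 in fluoxetine. The ratio of FANCI to FANCD2 was 2.53 and 2.53 in PBS and 2.32 and 2.76 in fluoxetine, so that the fluoxetine libraries lay on both sides of PBS. FANCD2 also has pseudogene copies, which leaves its reads uncertain.

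The base excision genes lay close to no change, with a median of 0.04 over 4 genes. PARP1 (chr1:226360691-226408079), the enzyme that marks nicks with poly(ADP-ribose), measured 149.6 and 147.4 FPKM in PBS and 152.7 and 149.5 in fluoxetine. The log2 fold change was 0.02 ± 0.07 with an interval from -0.13 to 0.18, the narrowest of the 37, and PARP1 rested on 19569 to 21141 reads per library. The ratio of PARP1 to its close relative PARP2 was 6.39 and 6.17 in PBS and 6.07 and 6.24 in fluoxetine, which overlap. XRCC1, the scaffold that brings in the ligase, measured 20.4 and 23.3 in PBS and 22.3 and 23.2 in fluoxetine, and the PBS libraries were further apart than the group means, which were 21.8 and 22.8. LIG3, the ligase it carries, had a log2 fold change of -0.02.

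Of the mismatch repair genes, MSH6 (chr2:47695530-47810101), which finds mispaired bases, measured 27.9 and 26.4 FPKM in PBS and 26.2 and 25.1 in fluoxetine. The groups were apart by a small margin, and the log2 fold change was -0.08 ± 0.08 (adjusted p = 0.751). PMS2, which nicks the strand to be repaired, had a log2 fold change of 0.07 and overlapped between the groups. It too shares sequence with pseudogenes.

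End joining held the gene with the highest FPKM of the 37. XRCC6 (chr22:41621119-41664048), the smaller subunit of the Ku ring that slides onto broken ends, measured 269.2 and 258.8 FPKM in PBS and 292.5 and 269.2 in fluoxetine. XRCC5, the other Ku subunit, was between 166 and 178 in the 4 libraries, and the ratio of XRCC6 to XRCC5 was 1.62 and 1.56 in PBS and 1.64 and 1.59 in fluoxetine. The balance of the Ku subunits therefore overlapped between the groups. PRKDC, the DNA-dependent kinase that Ku recruits, measured 55.7 and 54.5 in PBS and 45.4 and 55.9 in fluoxetine. The fluoxetine libraries lay on both sides of PBS, and the log2 fold change of -0.13 ± 0.09 (adjusted p = 0.678) became 0.02 without the first fluoxetine library. LIG4, the ligase that seals the ends, overlapped at -0.06.

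The nucleotide excision genes had the highest median of the pathways in the main fit, 0.07 over 5 genes. Of the 5, 4 lay above 0 and 1 below it, while 56.5% of all genes tested lay below 0. With the length trend removed their median was 0.04, under the 0.07 of the Fanconi anaemia genes. In that fit 2 of the 5 lay below 0 (50.6% of all genes). DDB2 (chr11:47214465-47239240), a sensor of ultraviolet damage and a p53 target, measured 25.5 and 25.4 FPKM in PBS and 28.05 and 26.08 in fluoxetine, a log2 fold change of 0.09 ± 0.08 (adjusted p = 0.737) that was 0.03 without the first fluoxetine library. ERCC2, a helicase of the TFIIH complex, was also higher in both fluoxetine libraries, at 0.07. XPC, which finds distorted DNA, XPA, which checks the damage, and ERCC1, which helps to cut the strand, overlapped between the groups. MGMT (chr10:129467184-129768007), which takes alkyl groups off guanine by itself, measured 2.12 and 2.10 in PBS and 2.23 and 2.08 in fluoxetine, with a log2 fold change of 0.03 ± 0.14. Its interval, from -0.28 to 0.33, was among the widest, and the gene had 342 to 380 reads per library.

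The junction nucleases and RecQ helicases had a median of -0.09 over 6 genes, and 5 of the 6 lay below 0 (56.5% of all genes tested did). With the length trend removed their median was -0.02, and 3 of the 6 lay below 0 (50.6% of all genes). WRN, a helicase and exonuclease, measured 4.26 and 4.44 FPKM in PBS and 3.77 and 3.58 in fluoxetine. The groups did not overlap, and its log2 fold change of -0.24 ± 0.11 (unadjusted p = 0.0564, adjusted p = 0.579) stayed between -0.27 and -0.20 when any 1 library was left out. BLM, the other RecQ helicase, overlapped at -0.01, and so did GEN1, a nuclease that cuts recombination junctions. MUS81 (chr11:65857126-65867653), the catalytic subunit of a junction nuclease, measured 15.7 and 18.1 in PBS and 17.7 and 16.9 in fluoxetine. EME1, its partner, measured 5.49 and 5.33 in PBS and 5.16 and 4.35 in fluoxetine, and MUS81 exceeded it by 2.85 and 3.40 times in PBS and by 3.42 and 3.88 times in fluoxetine. SLX4, the scaffold that holds these nucleases, had a log2 fold change of -0.16 and lay lower in both fluoxetine libraries. Its value was -0.08 without the first fluoxetine library and -0.05 with the length trend removed.

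**Figure D2:**
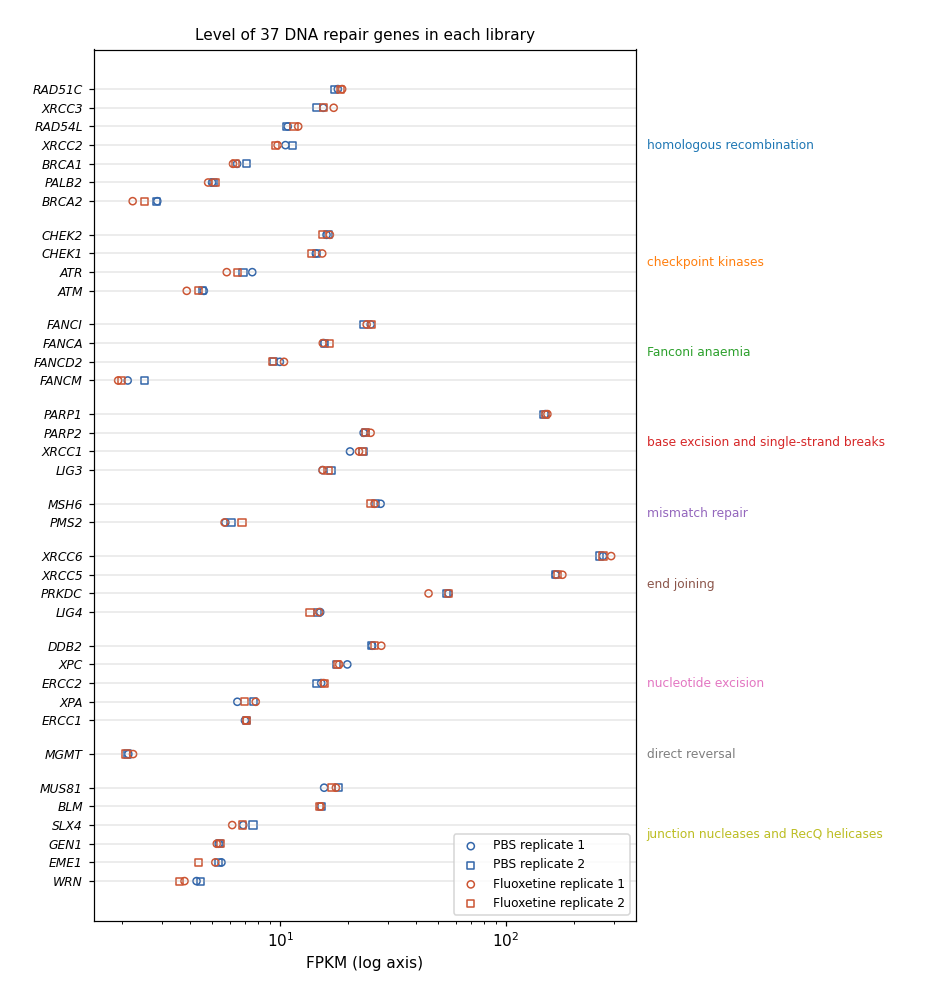
FPKM (log axis) of the 37 genes in each library, grouped by pathway; circles are replicate 1 and squares replicate 2, blue for PBS and red for fluoxetine. The 4 symbols of a gene lie close together next to the spread between genes, which runs from 2.13 for FANCM and MGMT to 272 for XRCC6.

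Levels in FPKM, which depend on the gene length divided by, differed far more between genes than between groups. XRCC6 was above XRCC5, XRCC5 above PARP1 and PARP1 above PRKDC in every library, with no overlap of their ranges. At the other end BRCA2, MGMT and FANCM overlapped in range and were not told apart in order, and MSH6 and DDB2, next below PRKDC, overlapped too. The summed FPKM of the 37 genes was 1042 and 1030.4 in PBS and 1075 and 1043 in fluoxetine. Summed over all genes, FPKM came to 364705 and 355729 in PBS and 379048 and 365732 in fluoxetine. The libraries thus stood in the same order for all genes as for the 37.

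Log2 fold changes were lower in longer genes. Across the 37 genes the correlation of the log2 fold change with the log2 length that the authors used was r = -0.61 (Spearman -0.62), given as a description because the genes share the same 4 libraries and depth, and across 12577 genes tested with a known length the Spearman value was -0.34. The 10 genes under 3000 bases had a median log2 fold change of 0.07 (0.04 for all genes of that length), the 19 genes of 3000 to 6000 bases had 0.01 (-0.03), and the 8 genes over 6000 bases had -0.16 (-0.09). Those 8 were FANCA, FANCM, BRCA1, ATR, SLX4, ATM, BRCA2 and PRKDC, and 7 of them lay below 0. The upper quartile of all 3310 genes over 6000 bases was -0.01, so most genes of that length lay below 0 as well.

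The pattern was strongest in the first fluoxetine library. The median deviation of the 8 long genes from their own mean was 0.04 and 0.10 in the PBS libraries, -0.16 in the first fluoxetine library and -0.02 in the second. Without the first fluoxetine library the correlation over the 37 genes was r = -0.22 (Spearman -0.32) and the median of the 8 long genes was -0.09; without the second fluoxetine library r was -0.78, and without the first or the second PBS library it was -0.50 or -0.62. When the length trend of all genes was removed from each library, the median of the 8 long genes was -0.04, r was -0.21, and the log2 fold changes of BRCA2, ATR, ATM and BRCA1 were -0.14, -0.14, -0.04 and -0.04. WRN and EME1, which are shorter, kept values of -0.19 and -0.23 there. After that removal 14 of the 37 genes lay below 0, against 50.6% of all genes.

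**Figure D3:**
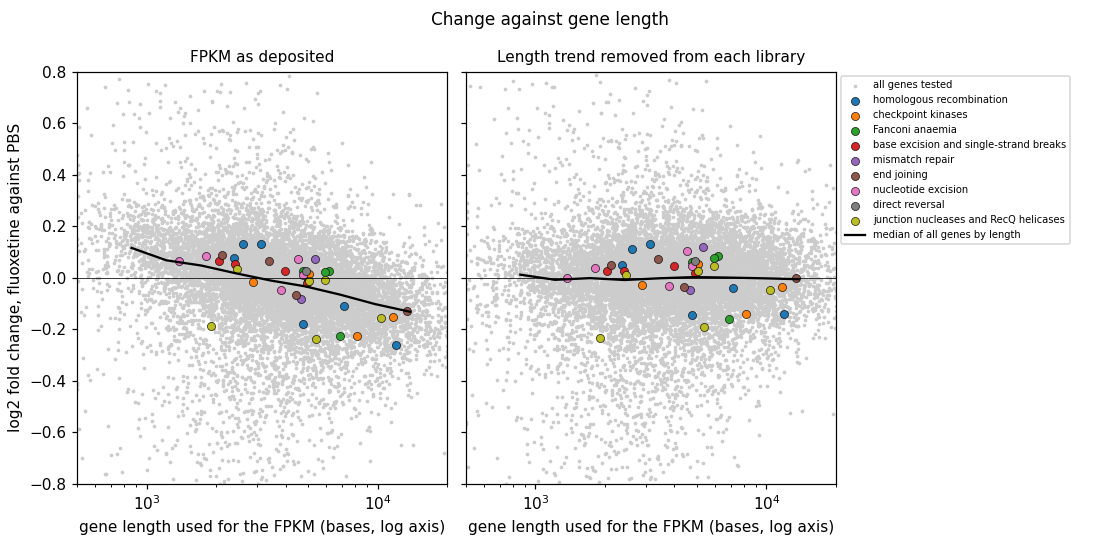
Log2 fold change of FPKM + 0.1, fluoxetine against PBS, against gene length in bases (log axis) for all genes tested (grey) and the 37 repair genes (coloured by pathway), as deposited (left) and after removal of the length trend from each library (right); the black line is the median of all genes by length. On the left the genes over 6000 bases sit at a median of -0.16 and on the right at -0.04.

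**Figure D4:**
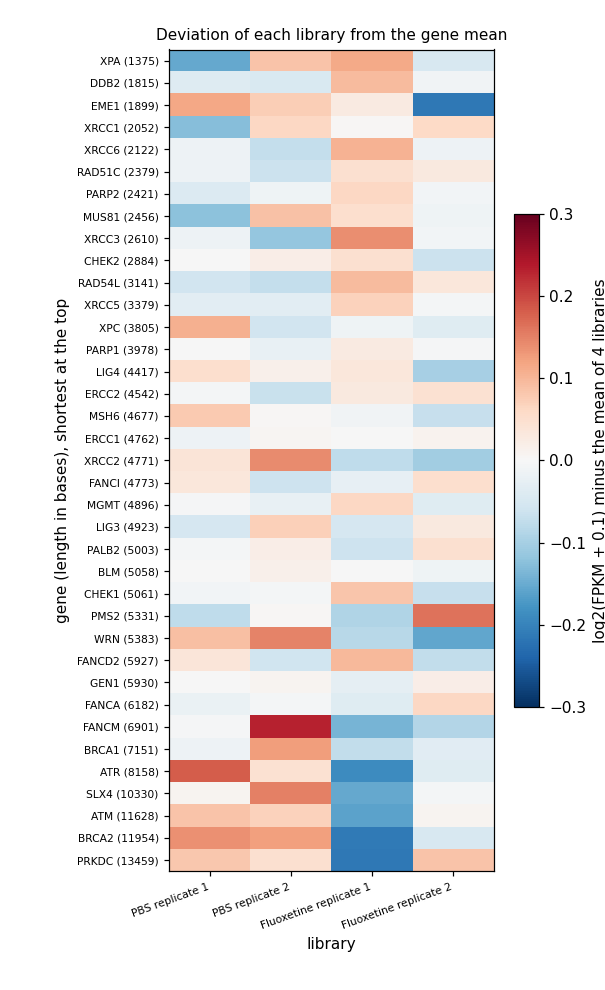
Log2(FPKM + 0.1) of each library minus the mean of the 4 libraries, for the 37 genes ordered by length in bases from the shortest at the top; red is above the mean and blue below it. The longest genes at the bottom are blue in fluoxetine replicate 1 (median -0.16 over the 8 genes above 6000 bases) and close to white in fluoxetine replicate 2 (median -0.02).

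Repair genes outside the 37 were read from a second list of 97 genes of the same pathways. Of these, 96 could be tested, 43 lay below 0 and 53 above, and their median log2 fold change was 0.02. At an unadjusted p under 0.05 there were 3 lower and 3 higher, 6 of 96, against 8.51% of all genes. NBN, a subunit of the break-sensing complex with MRE11, POLQ, a polymerase of an alternative end joining route, and MSH3, which finds small loops of unpaired bases, were lower, with log2 fold changes of -0.19, -0.23 and -0.29. UNG, which removes uracil from DNA, and CETN2, a partner of XPC, were higher, at 0.19 and 0.25, all with adjusted p from 0.538 to 0.579. The further list for homologous recombination, in which POLQ was counted, had a median of -0.07 over 15 genes. Of these, 12 lay below 0 (56.5% of all genes did). Both fluoxetine libraries were lower for 5 of them, POLQ included (24.8% of all genes). The median length of the 15 was 6041 bases. With the length trend removed 9 of the 15 lay below 0 (50.6% of all genes), with a median of -0.05.

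SLX1B, the nuclease subunit that SLX4 holds, was the 1 gene of that second list that passed the test. It measured 1.96 and 2.03 FPKM in PBS and 9.49 and 8.28 in fluoxetine, a log2 fold change of 2.10 ± 0.12 (limma, adjusted p = 6.25e-06), while its near-identical copy SLX1A was at 2.19 and 1.78 in PBS and 1.85 and 2.05 in fluoxetine. Reads can be placed on either copy, so which copy differed is uncertain. The adjusted p of SLX1B was 0.0931 without a filter on low values and 0.0901 with eBayes without trend, and it lay under 0.05 in the other alternatives. The sum of both copies was 4.152 and 3.803 in PBS and 11.3 and 10.3 in fluoxetine.

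Because many repair genes are expressed with the cell cycle, lists for S phase, for G2 and mitosis and for p53 targets were read beside them. The 23 S phase genes had a median log2 fold change of 0.07, with CDC45 higher at an unadjusted p under 0.05 (0.20, adjusted p = 0.535). Among 12 genes of G2 and mitosis the median was -0.03, with CCNB1 and AURKB higher at an unadjusted p under 0.05 (0.20 and 0.21, adjusted p = 0.535 and 0.497). The median of 16 p53 targets was 0.00, with AEN, a nuclease, higher at 0.20 (adjusted p = 0.525). No gene of these 3 lists had an adjusted p under 0.05.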

How the data were processed

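The authors deposited 1 FPKM value per gene and library, made with fastp, HISAT2 and HTSeq on GRCh38 according to the submitters' processing notes (versions not given in the sources used here); the count model that the study used for its own tests cannot be run on FPKM. The labels name a stranded TruSeq kit and the study a VAHTS kit, and the strand setting of the counting is not given in the sources used here. Fluoxetine libraries carry PP in their titles and were grouped by their treatment label. Limma 3.58.1 in R 4.3.3 (lmFit, eBayes with trend) was fitted to log2(FPKM + 0.1) of the 12663 genes with a mean of at least 0.1, with Benjamini-Hochberg adjustment over all of them and 95% intervals.

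Whole reads were recovered from the FPKM for 15994 of 16080 genes above 0 (99.5%, tolerance 0.004 of a whole number), which gave between 27978733 and 29710086 reads on the listed genes per library and the gene lengths used here. These lengths are those the authors divided by, as far as the recovery is right. Gene positions came from GENCODE 29 and promoters from RefSeq GRCh38.p14. Tables and figures were made in Python 3.11.15 with pandas 2.3.3, numpy 2.4.6, scipy 1.17.1 and matplotlib 3.10.9.

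The 37 genes and all lists were chosen with earlier results of these data known. Values in every library are given for genes with an unadjusted p under 0.05, for the highest gene and the gene with the largest absolute log2 fold change of each pathway, and for BRCA1, BRCA2, ATM, ATR and PARP1; EME1 was added after its values were seen. Of the other lists, genes with an unadjusted p under 0.05 are named. Repeat fits changed the pseudocount (1 or 0.01), the filter (none, or a mean of 1 FPKM), the scale (TPM, quantile normalized, or centred on the median) and the moderation (no trend, or robust), or added the replicate number as a block, removal of the length trend (lowess, span 0.3) with and without that block, and each library left out. A voom fit to recovered reads, for genes whose reads summed to 10 or more, was added after seeing the data. Values of some genes are not reported here.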

Additional observations from a re-analysis of the deposited data

How the results depend on the processing

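With only 2 libraries a group, changes smaller than the intervals of the 37 genes were not detectable, and nothing here separates a treatment effect from a difference between cultures. Over 17 alternatives 0 of the 37 genes passed an adjusted p of 0.05, and 577 values of single genes kept their sign while 52 turned it, none of them past the threshold.

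Replicate numbers are shared by PBS and fluoxetine libraries. Across genes, the deviations of libraries with the same number from their own group correlated at 0.035. With 2 libraries a group both numbers give the same value, so it cannot settle whether the libraries were paired. The replicate number was not taken as a pairing in the main fit. With it as a replicate block 64 genes of the whole table passed instead of 30, and 46 with the block and the length trend removed. The other counts over all genes were 0 without a filter (limma, 1069 at an unadjusted p under 0.05), 0 with eBayes without trend (933 unadjusted), 16 after quantile normalization, 93 by voom and from 2 to 12 with a library left out. The cause was not tested.

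The median for the 37 genes was -0.036 in TPM, 0.0014 after quantile normalization, 0.037 after median centring, 0.026 without the length trend (with or without the replicate block), 0.020 by voom and between -0.024 and 0.0040 with a library left out. The median for homologous recombination was -0.062 in TPM, 0.036 after quantile normalization, 0.025 without the length trend (with or without the replicate block) and between -0.069 and 0.041 with a library left out. The median for checkpoint kinases was -0.072 with a pseudocount of 1, -0.13 in TPM, -0.055 after quantile normalization, -0.060 after median centring, -0.032 without the length trend (with or without the replicate block), -0.079 by voom and between -0.10 and -0.072 with a library left out. The median for Fanconi anaemia was -0.023 in TPM, 0.051 after median centring, 0.070 without the length trend (with or without the replicate block) and between -0.024 and 0.046 with a library left out. The median for base excision and single-strand breaks was -0.0082 in TPM and between 0.0031 and 0.054 with a library left out. The median for end joining was -0.049 in TPM, -0.035 after quantile normalization and between -0.012 and 0.052 with a library left out. The median for nucleotide excision was 0.020 in TPM, 0.093 after median centring, 0.038 without the length trend (with or without the replicate block) and between 0.017 and 0.065 with a library left out. The median for junction nucleases and RecQ helicases was -0.13 in TPM, -0.019 without the length trend (with or without the replicate block) and between -0.12 and -0.045 with a library left out.

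Single genes that turned sign did so without passing a test. After quantile normalization, the values were 0.036 for PALB2, -0.037 for PARP1, -0.0080 for XRCC5, -0.018 for XRCC6, 0.043 for GEN1 and 0.0014 for BLM. After median centring, the values were 0.012 for PALB2, 0.0084 for CHEK2, 0.0057 for LIG3, 0.018 for GEN1 and 0.012 for BLM. Without the length trend (with or without the replicate block), the values were 0.025 for PALB2, 0.017 for LIG3, 8.8e-05 for PRKDC, -0.0015 for XPA, 0.045 for GEN1 and 0.026 for BLM. In TPM, the values were -0.033 for CHEK1, -0.021 for FANCA, -0.024 for FANCD2, -0.021 for FANCI, -0.023 for PARP1, -0.036 for ERCC1, -0.020 for MGMT and -0.012 for MUS81. By voom, the values were 0.00041 for GEN1. With a library left out, the ranges were -0.069 to 0.041 for PALB2, -0.063 to 0.091 for CHEK1, -0.074 to 0.038 for CHEK2, -0.023 to 0.075 for FANCA, -0.063 to 0.11 for FANCD2, -0.021 to 0.076 for FANCI, -0.030 to 0.16 for XRCC1, -0.082 to 0.041 for LIG3, -0.052 to 0.20 for PMS2, -0.28 to 0.021 for PRKDC, -0.13 to 0.0024 for LIG4, -0.052 to 0.19 for XPA, -0.13 to 0.033 for XPC, -0.023 to 0.075 for MGMT, -0.069 to 0.14 for MUS81 and -0.032 to 0.016 for GEN1. The cause was not tested.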
